A study of Mus musculus with 12 samples.

Results

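Chaperones fold proteins and keep unfolded ones from clumping, and the endoplasmic reticulum (ER) holds its own set for secreted proteins, which hepatocytes make in large amounts. When unfolded proteins build up in the ER, the sensors IRE1, PERK and ATF6 start the unfolded protein response, which raises ER chaperones and the machinery that sends misfolded proteins to the proteasome. PERK and related kinases also feed the integrated stress response, in which the transcription factor ATF4 and its partners raise genes of amino acid supply and signalling, while cytosolic damage raises HSP70 and its co-chaperones through heat shock factors. The phosphatase DUSP6 switches off the growth-signalling kinase ERK.

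Such genes were described in AML12 cells, a hepatocyte line from a mouse with a human TGF-alpha transgene. A gene belonged to the group when its name in a deposited table began with one of a fixed set of symbols (heat shock proteins Hsp, J-domain proteins Dnaj, disulfide isomerases Pdia, Bag, Atf and Sesn families, Ddit, Trib3, Asns, Chac1, Herpud, Hyou1, Manf, Sdf2l1, Creld, Sel1l and Xbp1). That gave 23 of the 2600 genes listed in either table, 8 from the contrast of plasmids and 16 from that of siRNAs, with 1 gene (Sel1l) in both. GENCODE M21 names 118 protein-coding genes that fit the pattern. The tables list genes chosen for their p-value, so a member was by definition a gene that had passed, and the number of members is no finding. Levels of the remaining names are not analysed here.

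All cells were grown in medium with dexamethasone and ITS supplement, and transfected with lipo2000. In the plasmid contrast, 3 libraries labelled GFP-DUSP6 (a plasmid for DUSP6 joined to green fluorescent protein) were set against 3 labelled GFP (the fluorescent protein alone), 24 h after transfection. In the siRNA contrast, 3 siDUSP6 libraries (an siRNA against Dusp6) were set against 3 NC libraries (negative-control siRNA, labelled as wild type), 48 h after transfection. No library serves in both contrasts, whose times and transfected nucleic acids differ. Replicate numbers come from the titles, and nothing in the labels says that replicates were separate cultures, so a p-value reflects only the spread among these libraries, possibly a technical one.

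Dusp6 itself was lower in siDUSP6, at 1783 ± 46.1 against 3935 ± 129 normalized counts in NC (SD, n = 3 each). With the plasmids, too, its count was lower, at 2354 ± 126 in the libraries labelled GFP-DUSP6 against 3352 ± 57.1 with GFP (SD, n = 3 each). This is opposite to what the label states. No source used here says whether plasmid transcripts were counted, and whether the labels or columns of the plasmid groups were exchanged was not tested. That group is therefore called by its label throughout, and with exchanged labels every direction given for the plasmid contrast would turn. Counts summed over listed genes, which are not library depths, ran from 1303866 to 1531091 per library in the plasmid table and from 3500977 to 4078892 in the siRNA table. Hepatocyte markers were searched under 13 symbols, of which Tf and Trf name the same gene. With siDUSP6, 6 were lower and 2 higher (Alb at 170.8 ± 38.2 against 673.8 ± 94, SD, n = 3 each). Their summed level lay between 83818 and 93136 normalized counts against 66122 to 82459 in NC, mostly from Krt8 and Krt18. Of these markers 0 were listed for the plasmids, so that the cell type cannot be checked there. Of 3 biliary markers 1 was higher and 2 lower in the plasmid contrast (summed level 31284 to 31714 against 38698 to 41223) and 1 higher and 1 lower in the siRNA contrast (2252 to 2388 against 2067 to 2323). Listed macrophage, endothelial and stellate markers numbered 0 in each table, and the part of these shifts in the results was not tested. In bulk RNA fewer cells of a kind and less RNA per cell cannot be told apart.

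Promoter stretches of 6 members are shown. Hspa1b and Hspa1a had the largest log2 changes among the members, and the other 4 stretches were chosen because they are the ones that hold the C/EBP-ATF response element described next; Ddit4, also a target of ATF4, had no match to it. Each runs 5′ to 3′ on the gene's strand from 150 bases before to 30 after the RefSeq start (build GRCm38.p6). Capitals mark matches to the heat shock, C/EBP-ATF and ER stress response element II motifs, while the short letters CCACG, also searched, are left in lower case.
Hspa1b, chr17:34959209-34959388, minus strand: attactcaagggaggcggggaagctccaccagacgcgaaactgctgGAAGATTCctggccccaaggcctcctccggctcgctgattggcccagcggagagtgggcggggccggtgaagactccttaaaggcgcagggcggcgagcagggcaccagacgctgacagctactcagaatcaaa
Hspa1a, chr17:34972127-34972306, minus strand: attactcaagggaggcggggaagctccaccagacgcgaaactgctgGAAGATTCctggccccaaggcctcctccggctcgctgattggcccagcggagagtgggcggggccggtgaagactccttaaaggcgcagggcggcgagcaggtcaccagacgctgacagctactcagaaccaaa
Atf3, chr1:191183304-191183483, minus strand: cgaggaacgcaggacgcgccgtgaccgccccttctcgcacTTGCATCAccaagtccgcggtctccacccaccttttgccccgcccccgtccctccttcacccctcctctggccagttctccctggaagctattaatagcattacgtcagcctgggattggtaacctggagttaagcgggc
Trib3, chr2:152344031-152344210, minus strand: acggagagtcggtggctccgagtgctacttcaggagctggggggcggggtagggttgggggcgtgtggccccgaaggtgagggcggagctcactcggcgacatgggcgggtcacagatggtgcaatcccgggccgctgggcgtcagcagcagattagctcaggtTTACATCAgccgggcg
Asns, chr6:7693180-7693359, minus strand: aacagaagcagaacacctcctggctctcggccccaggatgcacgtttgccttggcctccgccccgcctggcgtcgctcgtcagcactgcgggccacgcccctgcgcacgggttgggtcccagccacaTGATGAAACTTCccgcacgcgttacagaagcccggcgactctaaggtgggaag
Herpud1, chr8:94386279-94386458, plus strand: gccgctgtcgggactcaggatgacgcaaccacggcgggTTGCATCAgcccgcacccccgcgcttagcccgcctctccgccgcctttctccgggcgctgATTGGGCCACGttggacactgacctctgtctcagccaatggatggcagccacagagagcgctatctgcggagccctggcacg

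The Hspa1b and Hspa1a stretches are identical at 178 of 180 bases (98.9%). In each the capitals are a heat shock element of 2 units, GAANNTTC, at positions -104 to -97 from the start. The letters TGATGNAA, the form of the C/EBP-ATF response element searched on either strand, lie at positions -110 to -103 in Atf3, 15 to 22 in Trib3, -23 to -16 in Asns and -112 to -105 in Herpud1. In Asns they overlap a GAANNTTC match at -19 to -12, so the capitals there form 1 run. Herpud1 also holds the ER stress response element II (ATTGG and CCACG parted by 1 base) at -52 to -42; that motif was added to the search after the sequence had been seen. RefSeq gave 28 promoters for 22 of the 23 members, as windows of 300 bases (250 before and 50 after the start). Of these, 4 (14.3%) held TGATGNAA, against 3.97% of 32817 mouse promoters, and 5 (17.9%) held GAANNTTC against 7.86%. Among those 5 the nearly identical Hspa1a and Hspa1b are counted separately, and Asns counts toward both shares. The heat shock element of 3 units (GAANNTTC with a further GAA 2 bases on; 0.603% of all promoters), the ER stress response element (CCAAT and CCACG parted by 9 bases, 0.119%), TGACGTG (2.01%) and TGACGTCA (1.79%) were in 0 of the 28 windows. The form TTCNNGAA was in 1 (3.57% against 8.51%), the ER stress response element II in 1 (3.57% against 0.0366%) and the short letters CCACG in 14 (50% against 32.8%). These are matches of letters and say nothing about binding.

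In the libraries labelled GFP-DUSP6, 7 of the 8 members were lower and 1 was higher. The inducible HSP70 genes had low levels, from which Hspa1b fell by 64.1% and Hspa1a fell by 61.7%. Among 5 genes of ER and integrated stress signalling Atf3 fell by 20.4% and Asns fell by 11.2%, with Atf6, Trib3 and Sel1l between them. Were the labels exchanged, Hspa1b would be 2.78-fold and Hspa1a 2.61-fold higher. The one higher member, Dnajc9, encodes a histone chaperone of the J-domain family. Of the 12592 tested genes 4.61% passed an adjusted p of 0.05 in the authors' deposited table (DESeq2), 3.39% as higher and 1.22% as lower; since the members were taken from that table, their number is not read against it. Of all 580 calls 73.6% were higher, and of the members' calls 12.5%; both shares follow the labels and would turn with them.

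Hspa1b and Hspa1a encode the stress-inducible cytosolic HSP70, which binds unfolded stretches of proteins, and lie close together on chromosome 17 (34956436 to 34959238 and 34969190 to 34972156, minus strand, mm10). Hspa1b had raw counts of 72, 62 and 68 in replicates 1 to 3 labelled GFP-DUSP6 and of 154, 228 and 148 with GFP. Every GFP library was above every library labelled GFP-DUSP6, and GFP replicate 2 stood highest. Normalized counts were 65.5 ± 6.23 against 182.8 ± 52.2 (SD, n = 3 each), which is a log2 fold change of -1.48 ± 0.21 (SE), with an adjusted p of 2.28e-07 in the authors' deposited table. Hspa1a had 13, 23 and 30 counts against 65, 59 and 39 with GFP. Again the groups did not overlap, but the highest treated and the lowest control library came close. The log2 fold change was -1.39 ± 0.31 (SE), with an adjusted p of 0.0189 in the authors' deposited table. With single libraries left out, Hspa1a passed the edgeR refit in 3 of 6 fits. Of the 50-base words of Hspa1b 62.3% also occur in Hspa1a, so the split of reads between these copies is uncertain. Added up, a choice made after seeing the data, they gave 86.8 ± 7.06 against 239 ± 61.1 normalized counts and a log2 fold change of -1.46 ± 0.19 (edgeR adjusted p = 0.000252). A further 19% of the exonic bases of Hspa1a overlap Gm20481 on the opposite strand, and no source used here says whether counting used strand.

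**Figure D1:**
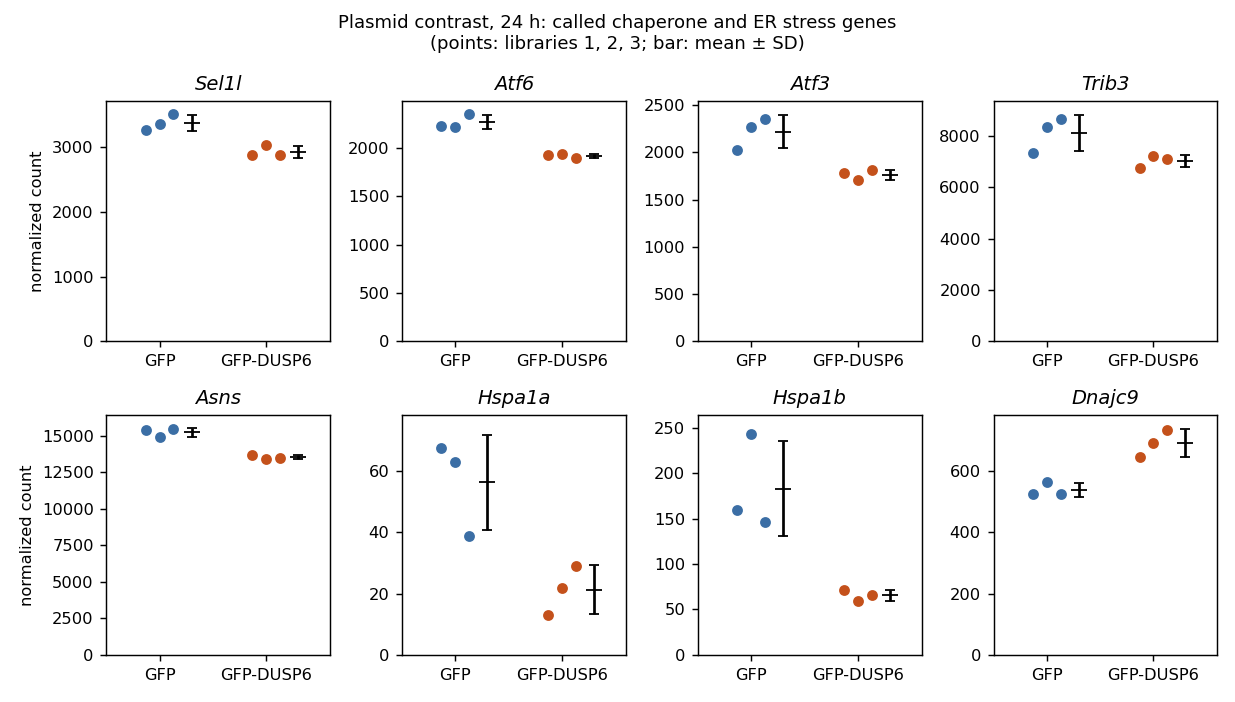
Normalized counts (y axes, starting at 0) of the 8 members called in the plasmid contrast, by group (x axes); points are libraries 1, 2 and 3 in that order and black bars the mean ± SD. Points of the groups are apart in all 8 panels, by a wide margin for Hspa1b and narrowly for Trib3.

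Among the stress transcription factors, Atf3 and Atf6 were lower. Atf3 (chromosome 1, 191170296 to 191218039, minus strand), an early response factor that stress and growth signals induce, had raw counts of 1787, 1790 and 1874 against 1958, 2136 and 2383 with GFP. The groups did not overlap, at 1766 ± 52.4 and 2219 ± 173 normalized counts (SD, n = 3 each), with GFP replicate 1 lowest of its group. The log2 fold change was -0.33 ± 0.07 (SE; adjusted p 0.000793 in the authors' deposited table). Atf6, the ER membrane sensor whose released part switches on ER chaperone genes, had counts of 1933, 2027 and 1962 against 2158, 2083 and 2372. Its libraries agreed closely within each group (1918 ± 19.8 and 2266 ± 72.2 normalized counts), for a log2 fold change of -0.24 ± 0.06 (SE; adjusted p 0.00922 in the authors' deposited table). With single libraries left out, Atf6 passed the edgeR refit in 2 of 6 fits (adjusted p up to 0.145). Atf3 passed in 3 of 6 (up to 0.0702).

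Sel1l (chromosome 12, 91806043 to 91849157, minus strand), the adaptor of the ER ubiquitin ligase HRD1, was the sole member called in each contrast. As labelled it was lower in each, and with exchanged plasmid labels the directions would be opposite. It had 2892, 3182 and 2974 counts in the libraries labelled GFP-DUSP6 and 3154, 3164 and 3545 with GFP. Raw counts overlapped and normalized counts did not (2929 ± 93.1 against 3380 ± 124; log2 fold change -0.21 ± 0.05, SE; adjusted p 0.0234 in the authors' deposited table). With siDUSP6 the counts were 3422, 3472 and 3232 against 4220, 3565 and 3844 in NC. Here the groups were apart in raw and in normalized counts (3315 ± 67.9 against 3913 ± 277 normalized counts, SD, n = 3 each), by -0.24 ± 0.07 on the log2 scale (SE; adjusted p 0.0159 in the authors' deposited table). The edgeR refit gave Sel1l an adjusted p of 0.0378 (plasmid) and 0.0439 (siRNA). With single libraries left out it passed in 2 of 6 plasmid fits (adjusted p up to 0.269) and 1 of 6 siRNA fits (up to 0.178).

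Asns and Trib3, classic targets of ATF4, were lower by small amounts. Asns (chromosome 6, 7675169 to 7693254, minus strand), which makes asparagine, had counts of 13758, 14073 and 13941 against 14871, 13992 and 15614 with GFP. Only the normalized counts were apart (13531 ± 138 against 15243 ± 310), a difference of -0.17 ± 0.05 on the log2 scale (SE; adjusted p 0.0117 in the authors' deposited table). Trib3, a pseudokinase that binds AKT and ATF4, had 6781, 7581 and 7350 counts against 7100, 7871 and 8760. GFP replicate 1 lay closest to the other group, and the log2 fold change was -0.21 ± 0.06 (SE; adjusted p 0.0367 in the authors' deposited table). In the edgeR refit neither passed, with adjusted p of 0.0576 for Asns and 0.0775 for Trib3.

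Dnajc9 (chromosome 14, 20384638 to 20388910, minus strand) went the other way, with 648, 725 and 761 counts against 508, 531 and 529 with GFP. All 3 libraries labelled GFP-DUSP6 were above all GFP libraries (690.7 ± 45.4 against 538.1 ± 23.3 normalized counts; log2 fold change 0.36 ± 0.09, SE; adjusted p 0.0169 in the authors' deposited table). The groups did not overlap for any of the 8 members, as for 99.7% of all called genes. The edgeR refit passed 6 of the 8, 1 higher and 5 lower. Among all listed genes 529 passed it (4.2% of tested genes, 3.18% as higher and 1.02% as lower), beside 580 called. Since members were taken from called genes, their share passing is not read against that of tested genes. Leaving out replicate 1, 2 or 3 labelled GFP-DUSP6 left 2, 1 and 2 lower members passing; leaving out GFP replicate 1, 2 or 3 left 5, 6 and 2. Dnajc9 passed only without GFP-DUSP6 replicate 1 or GFP replicate 2 (adjusted p 0.0134 to 0.183 over the 6 fits) and Hspa1b in all 6 (0.00027 to 0.0135). With scaling over the listed genes, whose median shift of the log2 fold changes was -0.30 (TMM) and -0.32 (median of ratios), every member kept its direction, and Dnajc9 came to 0.06 and 0.04 (edgeR adjusted p = 1 for each).

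In the siDUSP6 libraries 9 members were lower and 7 higher. The lower ones were mostly ER genes (Herpud1, Pdia3, Pdia4, Dnajc10 and Sel1l), the sestrins Sesn1 and Sesn3, and Ddit4; the higher ones included 4 of 4 called cytosolic HSP70 partners (Hspbp1, Dnaja1, Dnajb1 and Dnajb5). The changes were moderate, from -0.80 to 0.54 on the log2 scale, and 0 members reached a log2 change of 1. In this contrast 15.0% of 13102 tested genes passed in the authors' deposited table (7.76% higher, 7.19% lower), a background against which the members' number is not read for the reason given above. The median absolute log2 fold change was 0.39 for the members and 0.43 for all 1959 called genes, and in the plasmid contrast 0.29 and 0.39.

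**Figure D2:**
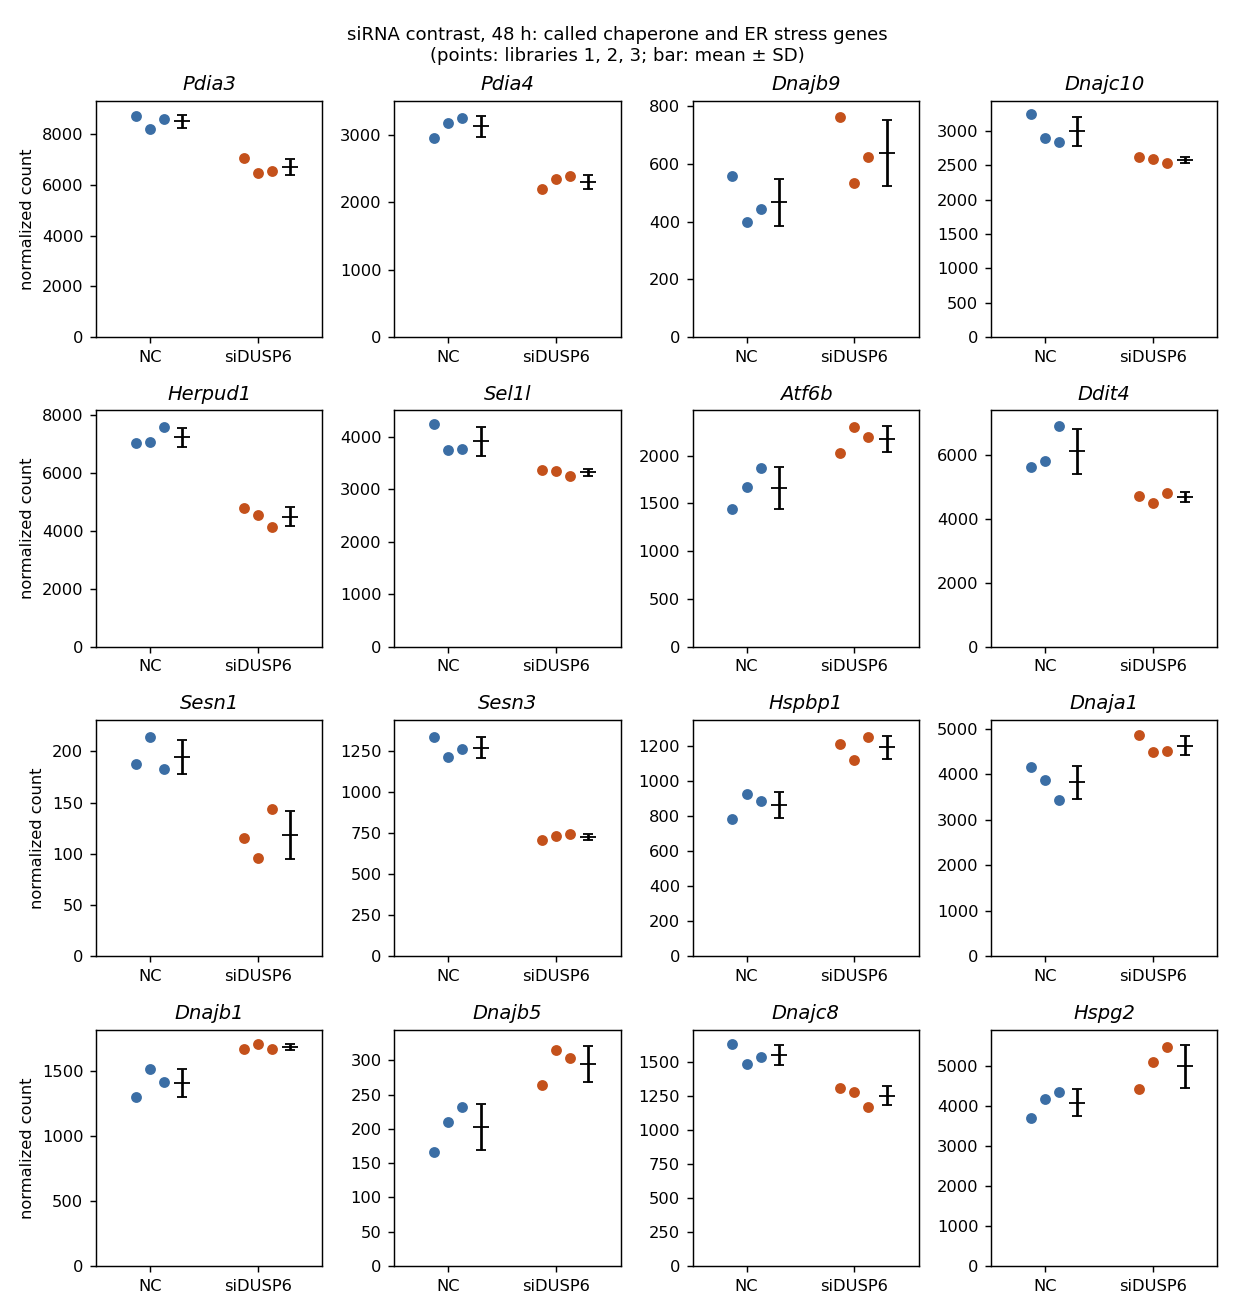
Normalized counts (y axes, starting at 0) of the 16 members called in the siRNA contrast, by group (x axes); points are libraries 1, 2 and 3 in that order and black bars the mean ± SD. The groups are apart in 15 panels and overlap for Dnajb9, where replicate 1 is highest in each group.

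Herpud1, an ER membrane protein that helps bring misfolded proteins to the HRD1 ligase, fell most among the ER genes. Its raw counts were 4841, 4712 and 4117 in siDUSP6 and 6987, 6716 and 7758 in NC (chromosome 8, 94386438 to 94395377, plus strand). The groups lay far apart relative to their spread, at 4474 ± 323 and 7218 ± 318 normalized counts (SD, n = 3 each). The log2 fold change was -0.69 ± 0.07 (SE; adjusted p 6.56e-17 in the authors' deposited table). The Herpud1 promoter stretch above holds the only match to the ER stress response element II among the 28 windows. That motif was added to the search after this sequence had been seen, and whether the element has a part in the change was not tested.

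The disulfide isomerases Pdia4 and Pdia3, which form and rearrange disulfide bonds of secreted proteins, were lower as well. Pdia4 (chromosome 6, 47796141 to 47813430, minus strand) had 2227, 2434 and 2385 counts against 2944, 3027 and 3326 in NC. Its normalized counts were 2308 ± 103 and 3129 ± 157 (SD, n = 3 each), which is a log2 fold change of -0.44 ± 0.07 (SE; adjusted p 4.88e-07 in the authors' deposited table). Every NC library was above every siDUSP6 library. Pdia3 (chromosome 2, 121413775 to 121438687, plus strand), the isomerase that works with calnexin and calreticulin on glycoproteins, had 7179, 6728 and 6538 counts against 8688, 7824 and 8783. It changed by -0.35 ± 0.06 on the log2 scale (SE; adjusted p 9.37e-06 in the authors' deposited table), again with no overlap. Dnajc10, a J-domain reductase of the ER, had 2669, 2691 and 2533 counts against 3235, 2765 and 2915 and a smaller log2 fold change of -0.22 ± 0.07 (SE). NC replicate 1 stood highest, and the adjusted p was 0.0415 in the authors' deposited table and 0.0718 in the edgeR refit.

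One ER member went up. Dnajb9, a co-chaperone of the ER HSP70 BiP that restrains IRE1, had 773, 555 and 621 counts in siDUSP6 and 556, 378 and 454 in NC. The groups overlapped, since NC replicate 1 exceeded siDUSP6 replicate 2, and replicate 1 was highest in each group. The log2 fold change was 0.45 ± 0.15 (SE), with an adjusted p of 0.033 in the authors' deposited table and of 0.0784 in the edgeR refit. Atf6b, the relative of ATF6 on the ER membrane, was also higher, with 2065, 2391 and 2194 counts against 1439, 1586 and 1917 (log2 fold change 0.39 ± 0.10, SE; adjusted p 0.0028 in the authors' deposited table). Its libraries did not overlap, with NC replicate 3 nearest to the siDUSP6 group. Atf6 was called in the plasmid contrast alone and Atf6b in the siRNA contrast alone; whether these effects differ between the contrasts was not tested.

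Sestrins restrain the growth kinase mTORC1 and are raised by p53, FOXO factors and nutrient stress. The 2 listed here, Sesn3 and Sesn1, were lower, and a sestrin that was not listed could not be examined. Sesn3 (chromosome 9, 14275067 to 14333101, plus strand) had 720, 758 and 742 counts in siDUSP6 and 1333, 1151 and 1287 in NC. The siDUSP6 libraries were nearly alike at 727.1 ± 17.6 normalized counts, against 1268 ± 63.9 in NC, a log2 fold change of -0.80 ± 0.08 (SE; adjusted p 5.29e-17 in the authors' deposited table). Sesn1 (chromosome 10, 41809935 to 41908424, plus strand) was sparser, with 117, 100 and 143 counts against 187, 203 and 187. It showed no overlap and a log2 fold change of -0.72 ± 0.17 (SE; adjusted p 0.00402 in the authors' deposited table), within its error of that of Herpud1. Without siDUSP6 replicate 2 it came to -0.59 (edgeR adjusted p 0.11). Ddit4, another mTORC1 inhibitor and a target of glucocorticoids, hypoxia and ATF4, had 4779, 4666 and 4784 counts against 5593, 5516 and 7067. NC replicate 3 stood above its group, and the log2 fold change was -0.39 ± 0.08 (SE; adjusted p 0.000298 in the authors' deposited table).

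The 4 cytosolic HSP70 partners listed in the siRNA table (Hspbp1, Dnaja1, Dnajb1 and Dnajb5) were called higher, and of these Hspbp1 alone passed the edgeR refit under median-of-ratios scaling (adjusted p 0.412, 0.394 and 0.0872 for the other three). Hspbp1 (chromosome 7, 4660521 to 4685068, minus strand), a nucleotide exchange factor that releases HSP70's clients, had 1227, 1161 and 1244 counts against 777, 878 and 905 in NC. The groups were well apart (1190 ± 66.5 and 862.4 ± 74.5 normalized counts, SD, n = 3 each), by 0.46 ± 0.09 on the log2 scale (SE; adjusted p 8.23e-05 in the authors' deposited table). Dnaja1, a J-domain partner that hands clients to HSP70, had 4947, 4666 and 4509 counts against 4141, 3684 and 3518 and a log2 fold change of 0.28 ± 0.08 (SE; adjusted p 0.0131 in the authors' deposited table). It shares 20.6% of its 50-base words with other genes, so its count is less certain. Dnajb1, the HSP40 that heat shock factors induce with HSP70, had 1703, 1781 and 1666 counts against 1298, 1443 and 1448. All siDUSP6 libraries exceeded all NC libraries, the log2 fold change was 0.26 ± 0.08 (SE), and the adjusted p was 0.0233 in the authors' deposited table and 0.0514 in the edgeR refit. Dnajb5, a related J-domain protein, had 269, 327 and 303 counts against 166, 200 and 237 (log2 fold change 0.54 ± 0.15, SE; adjusted p 0.0129 in the authors' deposited table). For Dnaja1 and Dnajb5, too, the groups did not overlap. With single libraries left out, Dnaja1 passed the edgeR refit in 1 of 6 fits and Dnajb5 in 2 of 6.

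Members outside protein folding made up the rest. Dnajc8, a J-domain protein tied to the spliceosome, had 1328, 1326 and 1168 counts against 1625, 1412 and 1570 and a log2 fold change of -0.31 ± 0.08 (SE; adjusted p 0.00467 in the authors' deposited table). Hspg2 fits the pattern by name only, since it encodes the matrix proteoglycan perlecan. It had 4484, 5291 and 5463 counts against 3688, 3974 and 4451 (log2 fold change 0.29 ± 0.09, SE; adjusted p 0.0219 in the authors' deposited table and 0.0571 in the edgeR refit). Over the 16 members the groups were apart for 15, against 98.8% of all called genes.

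The edgeR refit passed 12 of the 16 members, 4 higher and 8 lower. Among all listed genes 1605 passed it (12.3% of tested genes, 6.5% as higher and 5.75% as lower), beside 1959 called. Members were taken from called genes, so their share passing is not read against that of tested genes. Herpud1, Sesn3, Pdia4, Pdia3 and Hspbp1 passed without any single library, with adjusted p of at most 0.00115, 0.000763, 0.0155, 0.0494 and 0.0343. Without siDUSP6 replicate 2 or 3 or NC replicate 2 it passed 1 higher member each, and without siDUSP6 replicate 2 or NC replicate 2 it passed 4 and 5 lower ones. With scaling over the listed genes it passed 2 (TMM) and 1 (median of ratios) higher and 9 and 9 lower members, and every member kept its direction. The median shift from those scalings was -0.05 and -0.10 (log2).

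**Figure D3:**
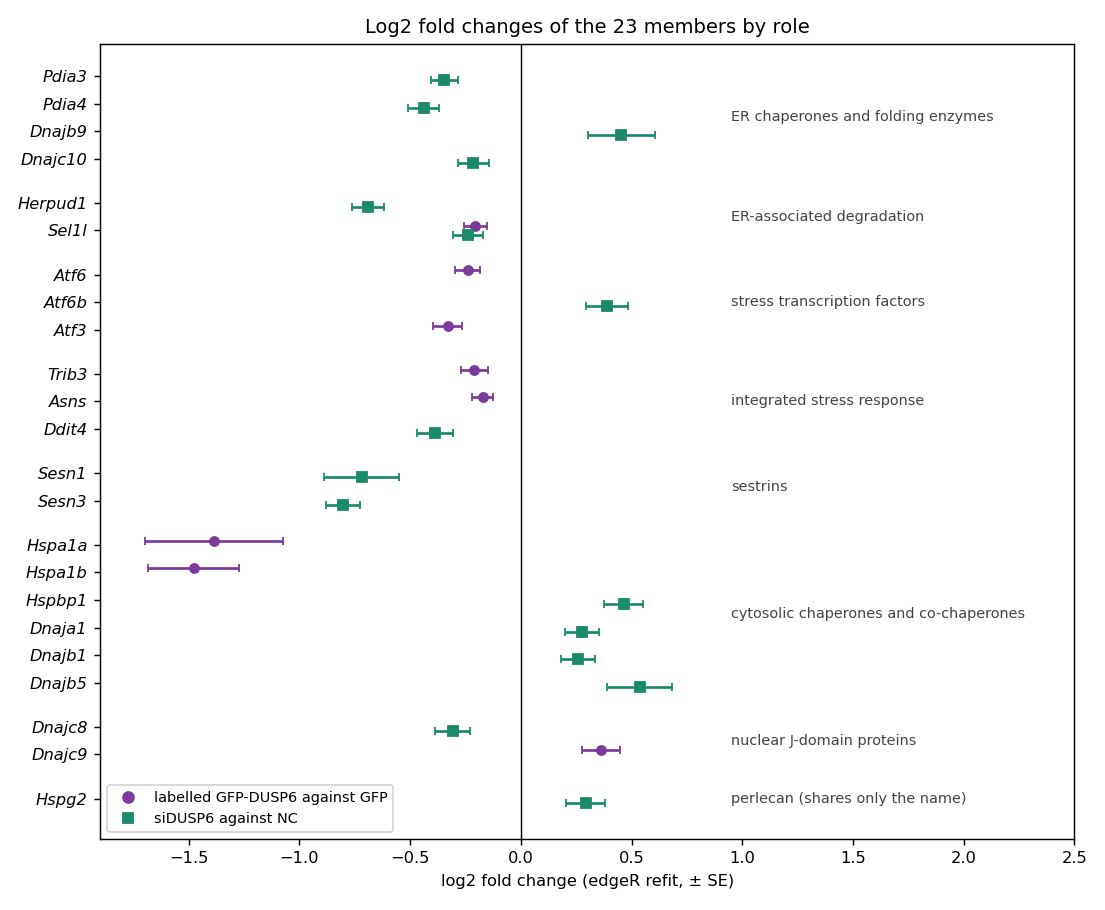
Log2 fold changes (x axis; edgeR refit, bars SE) of the 23 members, ordered by role (y axis); circles compare libraries labelled GFP-DUSP6 with GFP and squares siDUSP6 with NC. Hspa1a and Hspa1b lie farthest left, Sel1l alone has a value in each contrast, and the 4 cytosolic HSP70 partners of the siRNA contrast lie to the right of 0.

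Levels per kilobase of exon (GENCODE M21) spanned a wide range. In GFP libraries Asns stood highest, at 5573 ± 114 normalized counts per kilobase, then Trib3 (3826 ± 328), Atf3 (1030 ± 80.5), Sel1l (395 ± 14.5), Atf6 (245.4 ± 7.82), Dnajc9 (226.4 ± 9.81), Hspa1b (65.2 ± 18.6) and Hspa1a (18.9 ± 5.19; SD, n = 3). In NC libraries Ddit4 (3479 ± 400), Herpud1 (3094 ± 136), Pdia3 (2711 ± 80.2) and Pdia4 (1304 ± 65.3) led, and Sesn3 (83.1 ± 4.18), Sesn1 (48.9 ± 4.15) and Dnajb5 (34.2 ± 5.6) closed the order. Neighbours such as Dnajc8 (607 ± 28.8), Atf6b (603 ± 78.1) and Dnajc10 (600 ± 42.6) lay within 1 SD of each other. The union of all annotated exons was used as length, so a gene with long unused exons appears lower than it is.

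**Figure D4:**
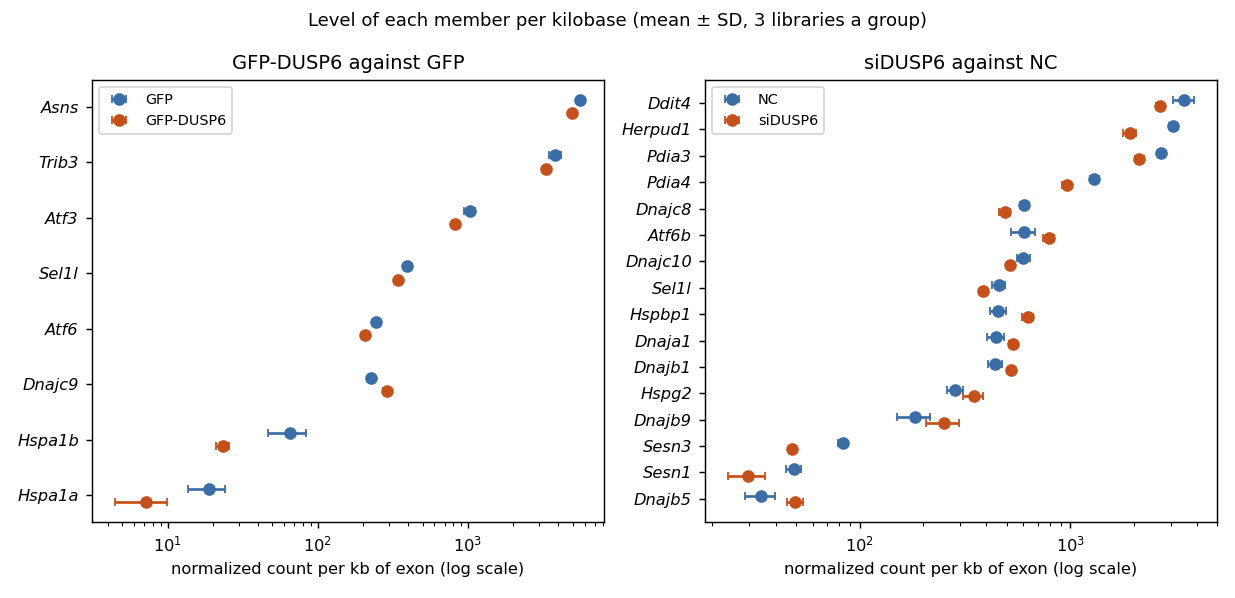
Normalized counts per kilobase of exon (x axes, log scale; mean ± SD, 3 libraries a group) of each member (y axes, ordered by the control level), with control libraries in blue and treated libraries in orange. Asns and Ddit4 are highest and Hspa1a and Dnajb5 lowest in the control groups.

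Other genes of the same pathways were taken from 6 lists, chosen with earlier results of these data known. Some of their called genes are members, selected because they had passed. The shares called are therefore no test of enrichment. Each list share is over all genes of the list, tested or not, whereas the share beside it is over tested genes only. Which unlisted genes were tested is not known, so these shares are not strictly alike. Of 39 integrated stress response targets, 6 were lower and 1 higher in the libraries labelled GFP-DUSP6 (17.9% of the list called, against 4.61% of all tested genes). Beside Atf3, Trib3 and Asns these were Ppp1r15a, the phosphatase subunit that reverses phosphorylation of the translation factor eIF2-alpha (log2 fold change -0.35 ± 0.06, SE; adjusted p 1.09e-05 in the authors' deposited table), Nars (-0.20 ± 0.05) and Wars1 (-0.21 ± 0.05), which load asparagine and tryptophan onto tRNA. The median log2 fold change of the 7 called was -0.21, against 0.35 for all called genes. Slc7a11, the cystine importer, rose by 0.38 ± 0.09 (SE). Apart from members, 1 gene of this list was called higher and 3 lower. With siDUSP6, 2 of that list were higher and 3 lower (12.8% called, against 15.0% of all tested genes): Slc7a5, an importer of large neutral amino acids (-0.29 ± 0.06), and Psat1 of serine synthesis (-0.23 ± 0.06) beside Ddit4, against Nars (0.24 ± 0.06) and Mars1 (0.22 ± 0.07).

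The ER lists had 1 call each in the plasmid contrast, which is 4.76%, 6.25% and 7.14% of their genes against 4.61% of all tested genes. Of 21 ER-resident chaperones and folding enzymes 1 was lower, Ero1a, the oxidase that recharges disulfide isomerases (-0.28 ± 0.08, SE; groups overlapped), of 16 ER-associated degradation genes 1 (Sel1l), and of 14 sensors and transcription factors of the unfolded protein response 1 (Atf6). With siDUSP6, 2 of the 21 ER-resident genes were higher and 3 lower (23.8% called, against 15.0% of all tested genes), where Ero1b rose by 0.44 ± 0.13 and Txndc5, a disulfide isomerase, had a log2 fold change of -0.20 ± 0.07. The 2 called ER-associated degradation genes, Herpud1 and Sel1l, were lower (12.5% of that list called, against 15.0% of all tested genes). Among the sensors and factors Atf6b was higher and Nfe2l1, which controls proteasome genes, lower (-0.18 ± 0.06). That is 14.3% of their list called, against the same 15.0%.

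Of 42 heat shock targets and cytosolic chaperones, 2 were lower (Hspa1a and Hspa1b) and 1 higher in the libraries labelled GFP-DUSP6. That is 7.14% of the list called, against 4.61% of all tested genes. The higher one was Cct4, a subunit of the TRiC chaperonin (0.20 ± 0.05, SE). With siDUSP6, 5 were higher and 1 lower (14.3% called, against 15.0% of all tested genes). Cct3, another TRiC subunit, rose by 0.22 ± 0.07 and Cdc37, which brings kinases to HSP90, by 0.25 ± 0.08, whereas Cct4 had a log2 fold change of -0.23 ± 0.07. The TRiC complex thus had called subunits on each side with siDUSP6. In the edgeR refit Cct3 passed narrowly (adjusted p 0.0499), while Cct4 (0.0658) and Cdc37 (0.0695) did not. Mitochondrial chaperones and proteases had 0 calls of 22 in the plasmid contrast (0 also in the edgeR refit), where 4.61% of all tested genes were called. With siDUSP6, 3 were higher (13.6% called, against 15.0% of all tested genes): the protease genes Lonp1 (0.45 ± 0.09), Htra2 (0.33 ± 0.11) and Afg3l2 (0.19 ± 0.06). In the edgeR refit 1 of those 3 passed, Lonp1 (adjusted p 0.00837).

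**Figure D5:**
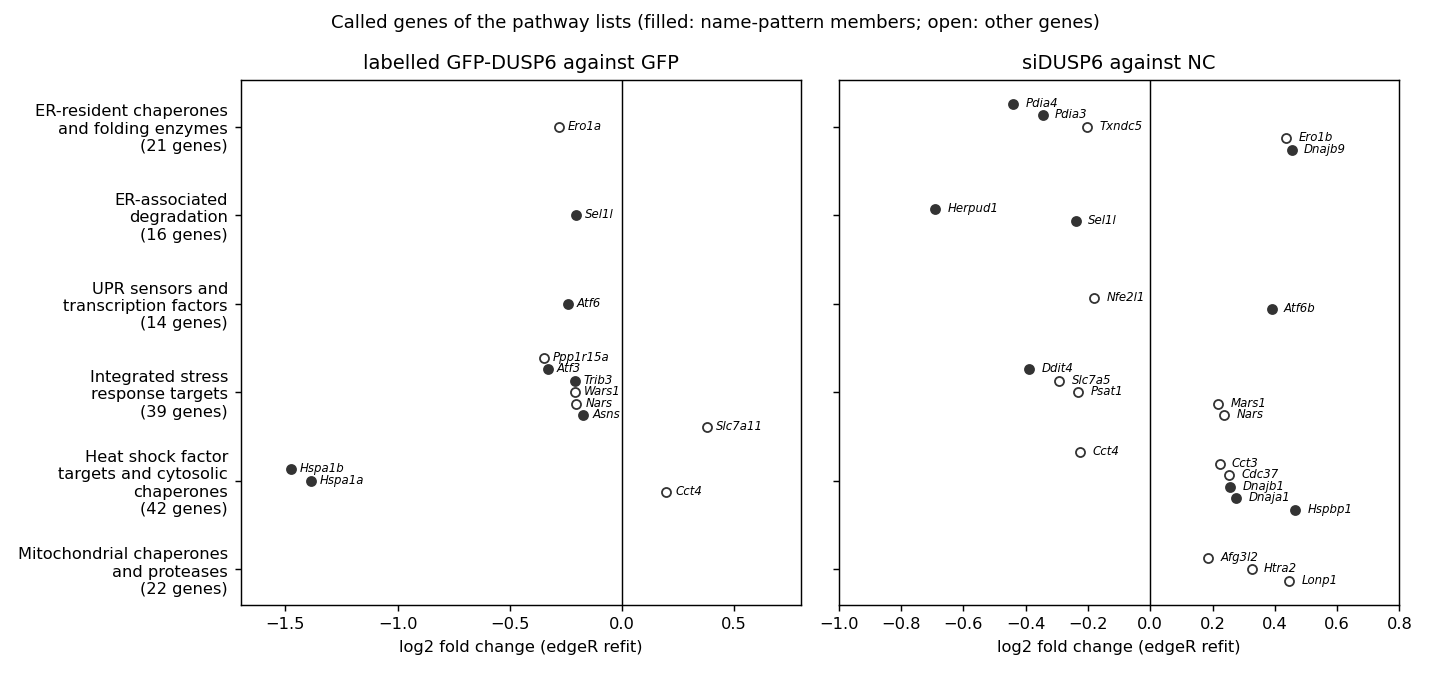
Log2 fold changes (x axes; edgeR refit) of the called genes of 6 pathway lists (y axis, with the number of genes in each list), left for the libraries labelled GFP-DUSP6 against GFP and right for siDUSP6 against NC; filled points are members by name and open points other genes. On the left 6 of 7 integrated stress response genes lie below 0, and on the right the 3 mitochondrial genes lie above 0.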

How the data were processed

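RNA of 12 libraries of AML12 cells was sequenced (4 groups of 3). For each contrast the authors deposited raw counts of genes by library. The submitters' processing notes name DESeq2 and build mm10; no source used here names the aligner, counting tool or annotation. Other columns of these deposited tables are, per the file headers, the log2 fold change with its p-value and adjusted p-value and, for the siRNAs alone, a mean normalized signal and a linear fold (ratio). The tables list 707 and 2150 genes selected by p. Adjusted p, p and rank imply 12592 and 13102 tested genes, with 505 of 580 and 1645 of 1959 rows within 0.01 of that number.

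A gene is called where its deposited adjusted p is under 0.05. Size factors of the whole libraries (0.94 to 1.05) were recovered, in the siRNA table from the mean normalized signal and in the plasmid table from the fold changes of 489 genes (largest error 0.000651, log2). Normalized counts are counts divided by them, as mean ± SD. An edgeR quasi-likelihood refit of all listed genes gave the log2 fold changes ± SE (edgeR 4.0.16, R 4.3.3, minimum count 10), with p adjusted by Benjamini-Hochberg over the tested genes; its spread rests on genes selected for their p. The refit was tested on simulated data. DESeq2 1.42.0, other scalings, no filter, a replicate block and leaving out libraries were alternatives.

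Members, lists and motifs were chosen with earlier results of these data known. The rule for values by library was Sel1l and the 10 members per contrast with the largest absolute log2 fold change; the remaining 5 were added after their values were seen. Of each list up to 4 further called genes with the smallest deposited adjusted p were named.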

Additional observations from a re-analysis of the deposited data

How the results depend on the processing

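Every log2 fold change of a member, and of Dusp6, kept its sign under every alternative run. Members called in the deposited tables numbered 1 higher and 7 lower (plasmid) and 7 higher and 9 lower (siRNA). The edgeR refit passed 1, 5, 4 and 8 of these, and DESeq2 with the same size factors 1, 7, 7 and 9. With TMM over the listed genes the refit passed 0 higher (plasmid) and 2 higher (siRNA), and with median of ratios 0 and 1. Of all genes passing, 75.6% (plasmid) and 53% (siRNA) were higher, against 26.8% and 40.4% with TMM and 22% and 33.9% with median of ratios, which take genes selected as changed as unchanged. When single libraries were left out, 0 to 1 higher and 1 to 6 lower members passed in the plasmid contrast, and 1 to 4 higher and 4 to 8 lower in the siRNA contrast, in fits with fewer samples.

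Whether replicate numbers pair the samples was not settled. Same-numbered libraries deviated together with r of 0.35, 0.37 and 0.012 (plasmid) and 0.37, 0.094 and 0.18 (siRNA). Between different numbers r ran from -0.38 to 0.016 (plasmid) and from -0.28 to 0.15 (siRNA). Still, not every library correlated best with its own number. With the replicate block 1 higher and 7 lower members passed (plasmid) and 7 and 9 (siRNA). Without it these were 1 and 5 (plasmid) and 4 and 8 (siRNA).

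In the lists the edgeR refit passed 0 against 1 ER-resident gene and 4 against 6 integrated stress response targets called lower (plasmid). In the siRNA contrast it passed 1 against 2 ER-resident genes higher and 2 against 3 lower, 0 against 1 sensor or factor lower, 1 against 2 integrated stress response genes higher, 3 against 5 heat shock genes higher, 0 against 1 lower, and 1 against 3 mitochondrial genes higher. The cause of these losses was not tested. The tables hold passing genes only, so that the depth of the libraries and the levels of other genes are not analysed here.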
